A study of Mus musculus with 2 samples.

Results

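The 10 microRNA genes Mir673, Mir493, Mir337, Mir540, Mir665, Mir431, Mir433, Mir127, Mir434 and Mir136 form the part of the imprinted Dlk1-Dio3 region of mouse chromosome 12 that lies beside Meg3 and Rtl1. They were chosen by gene name in the GENCODE M21 annotation and are 10 of the 2202 microRNA genes counted. MicroRNAs under 30 nt were sequenced from hearts of female B6CASTF1/J mice, a first-generation cross of the C57BL/6J and CAST/EiJ strains, at 4 days of age. There were 2 libraries, 1 per heart, called replicates 1 and 2, which the labels assign to differently numbered animals under the same donor entry. Both were untreated as far as the labels say and belonged to 1 group, so the data give levels and the gap between these hearts, and no comparison of conditions.

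A microRNA gene is transcribed into a hairpin, from whose 5p and 3p arms short RNAs of about the size sequenced here are cut. Bases 2 to 8 of such an RNA, its seed, pair with target transcripts. In the Dlk1-Dio3 region the paternal chromosome expresses the protein genes Dlk1, Rtl1 and Dio3, while the maternal chromosome expresses the long noncoding RNAs Meg3, Rian and Mirg and the microRNAs. Rtl1 encodes a retrotransposon-derived protein needed in placental vessels and fetal muscle. Because several of these microRNAs are encoded on the strand opposite Rtl1, their RNAs match its transcript base for base and are known to direct its cleavage in the mouse. The values below are sums over both parental copies and over both arms of a hairpin, so neither imprinting nor arm use was measured.

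All 10 genes lie on the plus strand of chromosome 12 (mm10), and all 10 hairpins were matched to RefSeq sequences of build GRCm38.p6 at the same positions. Mir673 (109571990 to 109572080), Mir493 (109580233 to 109580315), Mir337 (109585789 to 109585885), Mir540 (109586080 to 109586146) and Mir665 (109586314 to 109586407) come first, and none of these 5 overlaps Meg3 or Rtl1 in the annotation. Mir431 (109590447 to 109590537), Mir433 (109591715 to 109591838), Mir127 (109592846 to 109592915), Mir434 (109594506 to 109594599) and Mir136 (109595327 to 109595388) follow. These 5 lie inside the coding exon of Rtl1, which is on the minus strand (109589193 to 109600330). The mature RNAs of these Rtl1-antisense genes are shown from RefSeq (GRCm38.p6) 5′ to 3′, with the seed in capitals, because they carry most of the counts.
miR-431-5p: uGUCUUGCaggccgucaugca
miR-431-3p: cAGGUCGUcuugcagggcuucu
miR-433-5p: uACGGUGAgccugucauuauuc
miR-433-3p: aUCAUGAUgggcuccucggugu
miR-127-5p: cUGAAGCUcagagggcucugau
miR-127-3p: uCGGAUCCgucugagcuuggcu
miR-434-5p: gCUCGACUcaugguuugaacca
miR-434-3p: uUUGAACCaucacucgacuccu
miR-136-5p: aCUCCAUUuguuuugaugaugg
miR-136-3p: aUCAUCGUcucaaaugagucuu

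Of the 20 mature RNAs of the 10 genes, the reverse complements of 10 were found in the annotated Rtl1 transcript, all within its coding sequence, and these are the 10 listed. The site of miR-127-3p, for example, occupies bases 2642 to 2663 of that transcript, given here in DNA letters.
Rtl1 site of miR-127-3p: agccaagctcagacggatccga
No seed was shared between any pair of the 10 genes, which therefore form no seed family. Among all other RefSeq mouse mature microRNAs, only the seed of miR-673-5p recurred, in miR-6985-3p, and that of miR-540-3p, in miR-6915-5p. The genes of those RNAs had few reads, 1 in replicate 1 and 3 in replicate 2 for Mir6985, and 18 and 6 for Mir6915. No member shared a 20-nt stretch with a microRNA gene elsewhere in the annotation. The longest stretch shared by any of the 45 pairs of member hairpins was 11 nt (cgucaugcagg), between Mir337 and Mir431, and the next was 8 nt, between Mir673 and Mir665. Hairpin length ran from 62 nt for Mir136 to 124 nt for Mir433, and GC content from 40.3% for Mir136 to 61.5% for Mir673. The predicted folding energy per nucleotide ran from -0.61 kcal/mol for Mir540 to -0.361 kcal/mol for Mir433.

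The depth was 6417302 counts over microRNA genes in replicate 1 and 5662222 in replicate 2. Reads that mapped to several places were in no gene's count and made up 39.6% and 43.2% of all reads. Markers of heart muscle were abundant, with Mir208a, Mir208b and Mir499 of the myosin genes summing to 20993 and 19146 CPM (own-strand counts scaled to a library total of 1000000). Other cell types were represented too. Endothelial markers summed to 51830 and 73011 CPM, nearly all from Mir126a, since the other gene, Mir126b, had 4 and 3 counts. Smooth muscle markers (2 genes) summed to 47055 and 60331 CPM and fibroblast markers (4 genes, of which Mir199a-1 had 0 counts) to 10866 and 22305 CPM. Leukocyte markers summed to 1301 and 872 CPM, erythroid markers to 788 and 299.7 CPM, epithelial markers to 469 and 389 CPM, skeletal muscle Mir206 to 718 and 58.5 CPM, and liver Mir122 to 105 and 86.2 CPM. The 6 neuronal genes summed to 3 counts and 1 count, but each of them, like Mir199a-1 and Mir199a-2, shares a 20-nt stretch with another microRNA gene, so reads that fit several copies were not counted and these values say little about their expression. The lists hold different genes, so their sums do not rank the cell types against one another. In bulk tissue, fewer cells of a type and less RNA per cell cannot be told apart.

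All 10 genes were detected, meaning 10 counts or more in both libraries, as were 16.9% of all microRNA genes. That background is not like for like. Of all 2202 genes, 1087 share a 20-nt stretch with another, against 78 of the 373 detected genes and no member. Reads that fit several such genes were not counted. Together the 10 members held 68473 counts in replicate 1 and 36702 in replicate 2. These are 1.07% and 0.648% of the own-strand counts over all microRNA genes. The exact (Clopper-Pearson) 95% intervals of these shares are 1.06% to 1.07% and 0.642% to 0.655%. Such intervals cover counting error only, since reads without molecular identifiers are not independent molecules. The summed level averaged 8576 ± 2962 CPM (SD, n = 2). The median member averaged 367 CPM, against 75.2 CPM for the median of all 373 detected genes.

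Among the Rtl1-antisense genes, Mir127 stood far above the rest. Mir127, whose loss in mice impairs the placental labyrinth, had 43209 counts in replicate 1 and 21044 in replicate 2, which are 6733 and 3717 CPM (mean 5225 ± 2133, SD, n = 2). It ranked 35th of all microRNA genes by mean level, between Mir93 (6235 and 4309 CPM) and Mir499 (2653 and 7487 CPM). Those neighbours did not differ from it beyond their spread. Reads that map to several places are in no count, so ranks can favour genes without a shared 20-nt stretch, as all members are. Mir431, reported in mouse muscle stem cells as a regulator of Pax7, had 7751 and 6100 counts, or 1208 and 1077 CPM (mean 1143 ± 92.3). Mir433, linked in rodents to cardiac fibrosis, had 5020 and 2378 counts, or 782 and 420 CPM (mean 601 ± 256). Mir434 had 2885 and 1989 counts, or 450 and 351 CPM (mean 400.4 ± 69.5). Mir136, the gene nearest to the 5′ end of Rtl1, was the lowest of all 10 with 126 and 94 counts, or 19.6 and 16.6 CPM (mean 18.1 ± 2.14). It ranked 260th, between Mir7-1 and mmu-mir-3535, although it lies 727 bp from Mir434.

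Hairpin of Mir127, with both mature arms in capitals, the most abundant of the 10:
Mir127: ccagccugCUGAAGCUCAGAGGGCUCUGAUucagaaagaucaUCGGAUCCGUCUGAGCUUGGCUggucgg

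Outside Rtl1, Mir337 and Mir540 were the higher genes. Mir337 had 4885 counts in replicate 1 and 2703 in replicate 2, or 761 and 477 CPM (mean 619 ± 201, SD, n = 2). Mir540 had 2796 and 1307 counts, or 436 and 231 CPM (mean 333 ± 145). Mir665, the third gene of the same short stretch, had 355 and 489 counts, or 55.3 and 86.4 CPM (mean 70.8 ± 22.0), and was the only member with more CPM in replicate 2. Mir493 had 837 and 350 counts, or 130 and 61.8 CPM (mean 96.1 ± 48.5), and Mir673, the gene nearest to Meg3, had 609 and 248 counts, or 94.9 and 43.8 CPM (mean 69.3 ± 36.1). Mir337, Mir540 and Mir665 are separated by 194 and 167 bp, and their hairpins are shown because their counts moved apart between the hearts (mature arms in capitals).
Mir337: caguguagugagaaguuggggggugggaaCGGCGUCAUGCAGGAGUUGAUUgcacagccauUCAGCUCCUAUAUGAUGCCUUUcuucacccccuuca
Mir540: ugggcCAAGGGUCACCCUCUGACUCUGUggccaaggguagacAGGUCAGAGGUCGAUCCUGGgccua
Mir665: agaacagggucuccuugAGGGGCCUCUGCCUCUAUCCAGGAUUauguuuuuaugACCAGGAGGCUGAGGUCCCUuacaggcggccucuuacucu

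**Figure D1:**
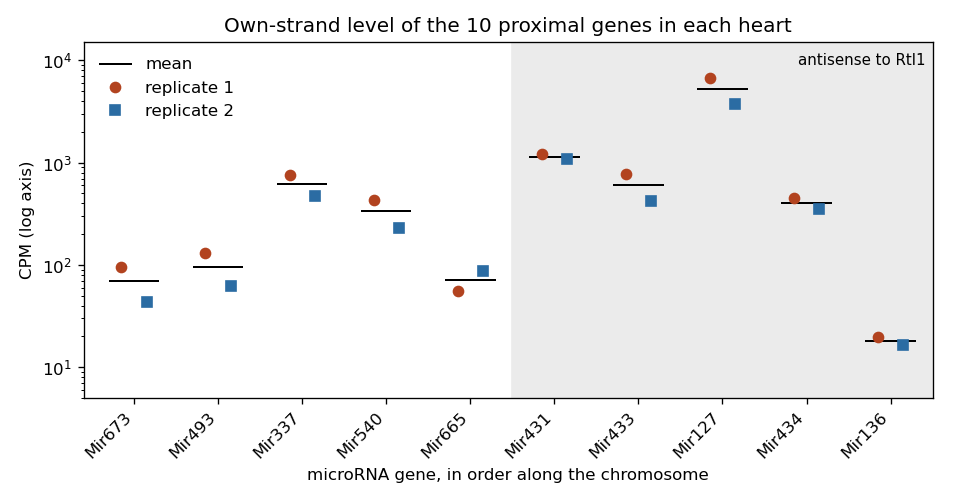
Level of each gene in CPM on a log axis, with replicate 1 as circles, replicate 2 as squares and the mean as a line; genes are in chromosomal order and shading marks those antisense to Rtl1. Mir127 is the highest gene in both libraries, Mir136 is the lowest, and Mir665 is the only gene whose square lies above its circle.

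By mean level the order was Mir127, Mir431, Mir337, Mir433, Mir434, Mir540, Mir493, Mir665, Mir673 and Mir136. A neighbouring pair was taken as different where the gap between means exceeded the larger SD and the order was the same in both libraries. By that rule Mir127 lay above Mir431 (5.57-fold in replicate 1 and 3.45-fold in replicate 2), Mir431 above Mir337 (1.59 and 2.26-fold), Mir540 above Mir493 (3.34 and 3.73-fold) and Mir673 above Mir136 (4.83 and 2.64-fold). No neighbouring pair among Mir337, Mir433, Mir434 and Mir540 separated by that rule, nor did one among Mir493, Mir665 and Mir673. Genes that are not neighbours in the order were not compared by it. Mir337 (761 and 477 CPM), for example, lay above Mir540 (436 and 231 CPM) in both libraries. With 2 libraries, genes of like pattern across samples could not be ranked.

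Along the chromosome the levels varied over short distances. Measured from the start of Meg3, Mir673 lay at 30.99 kb, the peak at Mir127 at 51.84 kb and the lowest gene, Mir136, at 54.33 kb. Between the start of Meg3 and Mir379, the first gene of the distal microRNA cluster, 12 further microRNA genes are annotated, and 4 of them were detected. Mir770, which overlaps an exon of Meg3, had 483 and 230 counts (75.3 and 40.6 CPM). Within Rian, Mir341 had 607 and 569 counts and Mir1188 had 32 and 17, while Mir370 held 125 and 66.9 CPM. Mir3544 had 9 and 5 counts, Mir3070a 3 and 2, Mir3070b 5 and 1, and Gm23912 1 and 0. Mir1906-1, Mir432, Mir3071 and Mir882 had 0 counts in both libraries, which allows up to 0.467 CPM in replicate 1 and 0.530 CPM in replicate 2. Of these, Mir432 is on the plus strand and overlaps the coding sequence of Rtl1, so it is also antisense to Rtl1. Mir1906-1, Mir3070a and Mir3070b share a 20-nt stretch with another microRNA gene, so reads that fit several of them were not counted. The 12 genes together held 303 and 212 CPM.

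**Figure D2:**
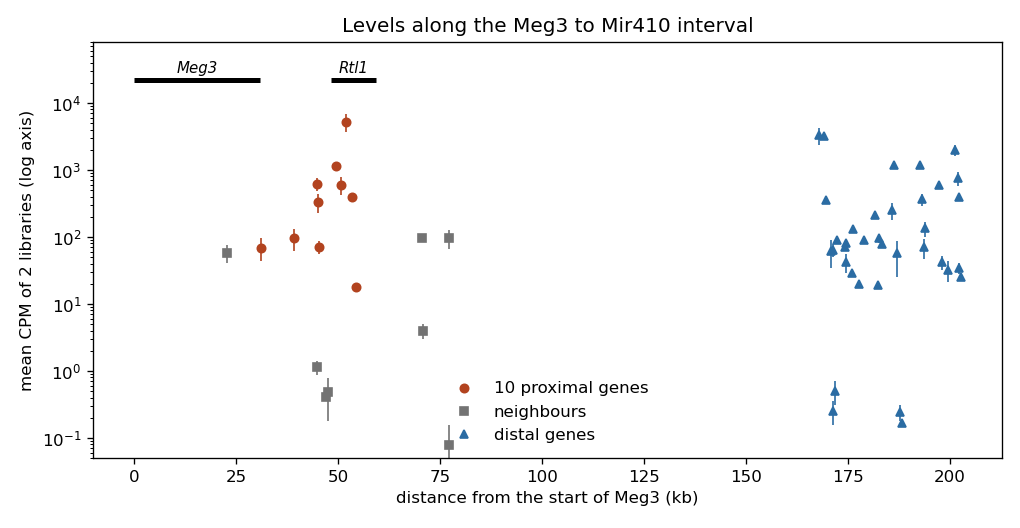
Mean level of each microRNA gene with any count (log axis, with a line joining the values of the 2 libraries) against distance in kb from the start of Meg3; bars at the top mark Meg3 and Rtl1. The 10 proximal genes sit between 30.99 and 54.33 kb, with Mir127 at the top.

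Members with an annotated partner on the opposite strand were counted almost wholly in the column read as their own strand. The deposited columns carry no headings. The one read as the gene's own strand held 84.0% of stranded counts over all microRNA genes in replicate 1 and 82.8% in replicate 2. Overlapping pairs such as Mir337 with Mir3544 and Mir136 with Mir3071 helped to tell the columns apart. Their own-strand shares are therefore no independent check of that reading. A read in an overlap of 2 such partners counts as own strand for one and as opposite strand for the other. Mir3544 had 4885 and 2703 opposite-strand counts, which are the own-strand counts of Mir337. With both strands together, 1223777 and 1177754 reads were ambiguous between genes. The share over all genes is therefore not a rate of off-strand reads. Mir337 overlaps Mir3544 on the minus strand, and its own strand held 99.80% of its stranded reads in replicate 1 (exact 95% interval 99.62 to 99.90), with 99.82% for replicate 2 (99.57 to 99.94). Mir136 lies within Mir3071 on the minus strand, and all of its 126 and 94 reads were on the plus strand, so that Mir3071 had 0. In the column read as both strands together, reads over such overlaps go to neither gene, and Mir337 had 1 and 0 counts there and Mir136 had 0 in both. Of the other 8 members, only Mir434 had an opposite-strand read, 1 in replicate 2. The transcript of Rtl1 runs on the minus strand, and over the 5 members antisense to it the minus strand held 1 read in all. Since RNAs under 30 nt were sequenced, this does not measure the level of the Rtl1 transcript.

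The make-up of the set was similar in both hearts in broad terms and differed in detail. Rtl1-antisense genes held 86.2% of the members' counts in replicate 1 (exact 95% interval 85.9 to 86.4), against 86.1% in replicate 2 (85.8 to 86.5), a difference within counting error. Mir127 held 63.1% (62.7 to 63.5) and 57.3% (56.8 to 57.8). Mir431 held 11.3% (11.1 to 11.6) and 16.6% (16.2 to 17.0). Shares of this kind do not depend on how the libraries are scaled. Mir337 held 7.13% and 7.36%, Mir433 7.33% and 6.48%, Mir434 4.21% and 5.42%, and Mir540 4.08% and 3.56%. Mir493 held 1.22% and 0.954%, Mir673 0.889% and 0.676%, Mir665 0.518% and 1.33%, and Mir136 0.184% and 0.256%.

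**Figure D3:**
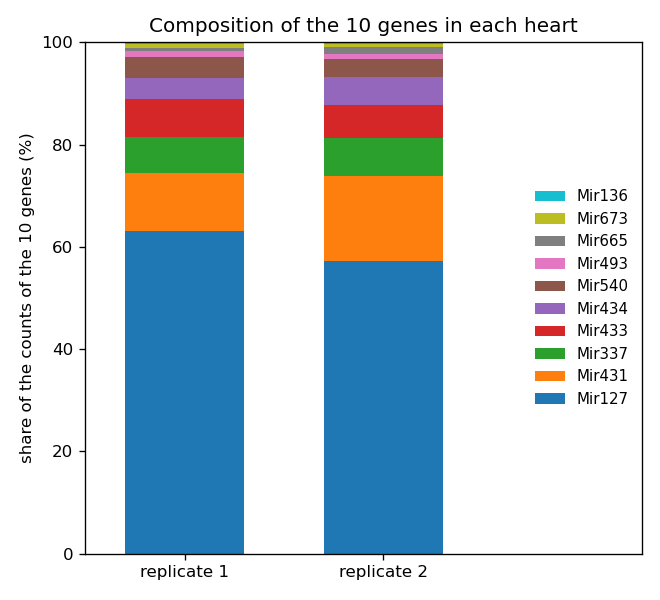
Share in percent of the counts of the 10 genes held by each gene, in replicate 1 (left bar) and replicate 2 (right bar). Mir127 fills 63.1% and 57.3% of the bars and Mir431 fills 11.3% and 16.6%.

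Several neighbouring genes kept the same proportion in both hearts, and others did not. Mir673 made up 42.1% of the counts of Mir673 plus Mir493 in replicate 1 (exact 95% interval 39.6 to 44.7), against 41.5% in replicate 2 (37.5 to 45.5). Mir433 made up 10.4% (10.1 to 10.7) and 10.2% (9.77 to 10.5) of the sum with Mir127, and Mir434 made up 95.8% and 95.5% of the sum with Mir136. In these 3 pairs the intervals of the libraries overlapped. Mir540 made up 88.7% (87.6 to 89.8) of the sum with Mir665 in replicate 1 and 72.8% (70.7 to 74.8) in replicate 2, the widest gap of the 9 adjacent pairs. Mir431 made up 60.7% (59.8 to 61.5) and 72.0% (71.0 to 72.9) of the sum with Mir433. In the other 4 adjacent pairs the shares differed by 4 percentage points or less and their intervals did not overlap. A few points can still be a larger change in proportion where a share is very low or very high. Mir665 made up 4.38% of the sum with Mir431 in replicate 1 and 7.42% in replicate 2. Mir127 had 14.98 and 10.58 times the counts of Mir434. Mir493 made up 14.6% and 11.5% of the sum with Mir337, and Mir337 made up 63.6% and 67.4% of the sum with Mir540. With 1 library per heart, a gap beyond counting error cannot be told apart from a difference in preparation.

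For the gap between the hearts, library sizes were scaled by the trimmed mean of M-values (TMM) over detected genes, and the log2 ratio of replicate 1 over replicate 2 carries a 95% interval for counting error. No member differed by over 2-fold, against 12.3% of all 373 detected genes. At 1.5-fold 5 of 10 members passed (Mir673, Mir493, Mir540, Mir433 and Mir665), against 29.5% of detected genes. The ratio was above 0 for 7 members and below 0 for 3, with a median of 0.47, while 47.2% of all detected genes lay above 0 and their median was -0.05. Mir673 (0.82, interval 0.61 to 1.04), Mir493 (0.78, 0.60 to 0.97), Mir540 (0.62, 0.53 to 0.72), Mir433 (0.60, 0.53 to 0.68), Mir127 (0.57, 0.54 to 0.59) and Mir337 (0.38, 0.31 to 0.45) were higher in replicate 1. Mir434 (0.06, -0.02 to 0.15) and Mir136 (-0.05, -0.45 to 0.35) had intervals that included 0. Mir665 was lower in replicate 1 (-0.93, -1.14 to -0.73), and 86.9% of detected genes had a smaller gap. Mir431 was also lower (-0.13, -0.18 to -0.08), but under scaling by total counts it was higher (0.16).

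Scaling by total counts moved every log2 ratio up by 0.29, relative to which the members' order is the same. Mir673 (1.11) and Mir493 (1.08) then passed 2-fold, 2 of 10 members against 12.9% of detected genes in either direction. With this shift 9 of 10 members lay above 0, all but Mir665 (-0.64), and so did 65.7% of detected genes. The sum of the 10 members had a log2 ratio of 0.43 with TMM and 0.72 with total counts. It was 0.22 with TMM when Mir127 was left out. Erythroid markers (3 of 3 genes higher in replicate 1, summed log2 ratio 1.10 with TMM) and skeletal muscle Mir206 (3.32) were also higher in replicate 1. The fibroblast sum was lower (-1.33), which rests on Mir21a (-2.17), since Mir199a-2 (-0.42) had few counts and Mir214 was higher (0.62). The more abundant endothelial (-0.79) and smooth muscle (-0.65) sums were lower in replicate 1. The heart muscle sum (-0.16) held Mir499 at -1.79, with Mir208a at 0.56 and Mir208b at 0.11. The leukocyte, epithelial and liver sums stood at 0.29, -0.02 and -0.01. Among leukocyte genes, Mir142 (1.16) and Mir155 (0.51) were higher in replicate 1, and Mir223 (-1.13) and Mir150 (-0.32) were lower. Epithelial Mir205 had 9 counts in replicate 1 and 180 in replicate 2 (-4.72). Epithelial Mir200b (-1.41) and Mir200a (-0.32) were also lower in replicate 1, while Mir141 (0.36) and Mir200c (0.27) were higher. Whether these cell types had a part in the members' gap was not tested.

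**Figure D4:**
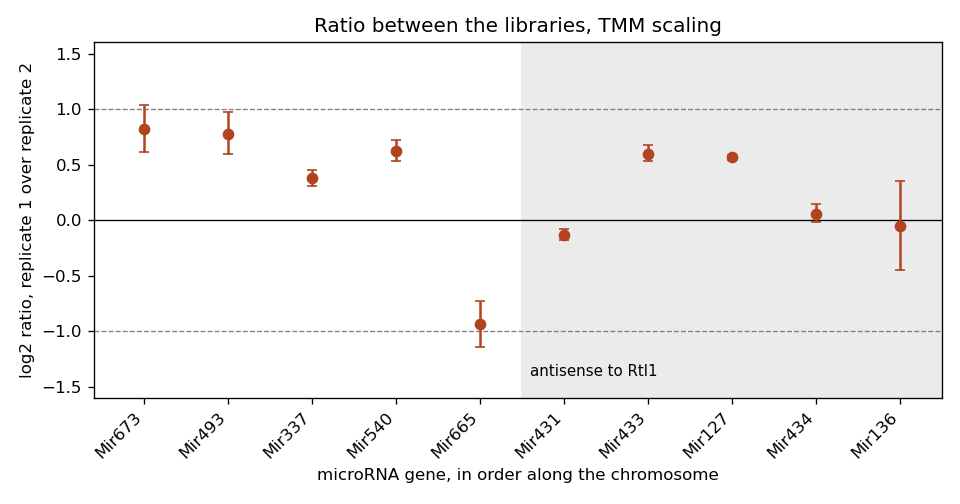
Log2 ratio of replicate 1 over replicate 2 for each gene in chromosomal order, with TMM scaling and 95% exact intervals for counting error; dashed lines mark 2-fold and shading marks genes antisense to Rtl1. All points lie between -0.93 for Mir665 and 0.82 for Mir673.

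**Figure D5:**
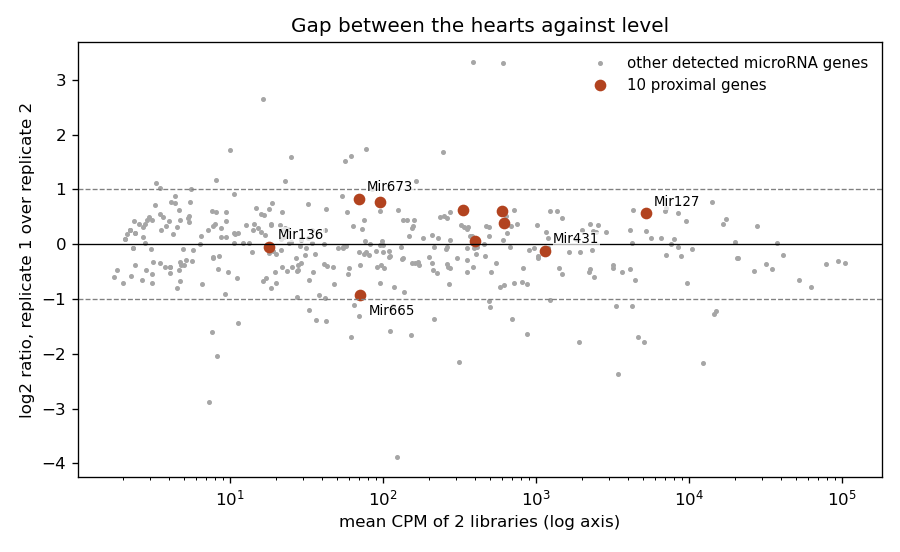
Log2 ratio of replicate 1 over replicate 2 against mean level (log axis) for the 373 detected microRNA genes, with TMM scaling; large points are the 10 proximal genes and dashed lines mark 2-fold. The 10 genes lie inside the dashed lines at levels from 18.1 to 5225 CPM.

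The distal genes of the same region, from Mir379 to Mir410, did not share the members' gap in their sum. The 10 proximal genes held 10670 CPM in replicate 1 and 6482 CPM in replicate 2, whereas the 43 distal genes, of which 32 were detected, held 15109 and 15122 CPM. Proximal genes thus made up 41.4% of the proximal and distal counts in replicate 1 (exact 95% interval 41.2 to 41.6), against 30.0% in replicate 2 (29.7 to 30.3). This share, which is free of the scaling, averaged 35.7% ± 8.05 (SD, n = 2). The distal sums were alike in CPM, which scales by total counts. With TMM the distal sum had a log2 ratio of -0.29 (interval -0.307 to -0.28), against 0.43 for the proximal sum. The leading genes changed places, since Mir127 had 2.81 times the counts of Mir379 in replicate 1 and 0.87 times in replicate 2. Both weigh heavily in the proximal share. Mir127 held 43209 of 68473 proximal counts in replicate 1 and 21044 of 36702 in replicate 2. Mir379 held 15364 of 96961 distal counts and 24108 of 85626. Without Mir127 the other 9 members held 3937 CPM in replicate 1 and 2765 CPM in replicate 2. Their summed log2 ratio with TMM was 0.22, so much of the proximal gap rests on Mir127. The proximal share without both Mir127 and Mir379 was not computed. The proximal genes had a median level of 367 CPM, against 90.8 CPM for the detected distal genes, and a median log2 ratio of 0.47, against -0.07. The highest distal genes were Mir379 (2394 and 4258 CPM), Mir411 (3090 and 3300.1 CPM) and Mir541 (2380 and 1630 CPM), and their log2 ratios were -1.12, -0.39 and 0.25. With TMM, 0 of the 10 proximal genes passed 2-fold, against 4 of the 32 detected distal genes, of which Mir539 (1.52) was higher in replicate 1 and Mir380 (-1.70), Mir668 (-1.31) and Mir379 were lower. With total counts Mir379 (-0.83) came inside 2-fold and Mir377 (1.03) passed it. Mir411 shares a 20-nt stretch with another gene. The difference between the proximal and distal genes rests on 1 pair of hearts and was not tested.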

How the data were processed

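MicroRNA sequencing of 2 hearts gave 1 count table per library. The values are unnormalised counts for every microRNA gene, as deposited, on build mm10 with GENCODE M21, per the deposited descriptions; what aligned and counted the reads was not given in the sources used here. The 3 count columns have no headings and were read, from their layout, totals and overlapping gene pairs, as both strands together, the gene's own strand (used here) and the opposite strand. The 4 summary entries (unmapped, multi-mapped, outside genes, ambiguous) stayed out of library sizes, so the 44.4% and 42.0% of reads assigned to genes were used. Replicate numbers and tissue come from the labels.

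CPM used a library's own-strand total. TMM factors (1.11 and 0.904, edgeR 4.0.16) came from genes with 10 counts or more in both libraries, and 0.5 was added to each count in log2 ratios. Intervals are exact (Clopper-Pearson, 95%), made with scipy 1.17.1, and cover counting error only. No p-value was computed, because the series has 1 group. DESeq2 1.42.0 gave alternative size factors, and ViennaRNA 2.7.2 the folding energies. Named genes are the 10 members, the genes ranked next to the highest and lowest member, the microRNA genes between Meg3 and Mir379, and the 3 highest and the past-2-fold distal genes. Genes named for a shared seed or a shared 20-nt stretch were found by sequence, and Mir377 and the single markers given a ratio were singled out after their values were seen. Members and lists were chosen with earlier results of these data known. Sequence differences between the CAST parent and the reference were not examined.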

Additional observations from a re-analysis of the deposited data

Results flagged for a closer look

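The opposite-strand counts, which enter no level of the 10 genes, passed the limit of 3 counts at 1 of them. At Mir337 they were 10 in replicate 1 and 5 in replicate 2, and a count of 0 allows up to 3, while Mir3544, annotated on that strand within Mir337, had the 9 and 5 counts given among the neighbours.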

How the results depend on the processing

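Detection of all 10 genes held with a minimum of 1 or 50 counts in each library, and 8 were detected in the counts of both strands, where Mir337 and Mir136 lose their reads to overlaps by construction. With the 10 most abundant genes left out of the total, the summed level was 19683 CPM. The proximal share of the proximal and distal counts was 44.3% without genes that share 20 nt with another, which removes 5 genes (Mir411, Mir487b, Mir376c, Mir376b and Mir758) from the distal sum. The summed log2 ratio was 0.72 with total counts and 0.48 with median-of-ratios size factors. The count of members past the fold was 2 with total counts and 5 at 1.5-fold (29.5% of detected genes passed 1.5-fold), against 0 with TMM at 2-fold. Leaving out replicate 1 or 2 gave a summed level of 6482 or 10670 CPM and a proximal share of 30.0% or 41.4%. Of the values per gene under the alternatives, 93 moved by less than the spread or the counting interval and 26 by more. Part of the 93 was fixed in advance. Leaving out 1 of 2 libraries always moves their mean by less than the SD, and the own-strand shares were near 100%. The tally is therefore no measure of robustness. With TMM no member passed 2-fold, so no such call could change sign, and the signs of Mir431 and Mir136 turned with total counts. Depth limits Mir136, whose interval spans 0, and reads that map to several places are in no count. No paired analysis was possible because the series has 1 group.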
